A study of Mus musculus with 4 samples.

Results

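Granzymes and the other genes of the cytotoxic granule were examined in skin cells labelled as regulatory T cells, from mice that did or did not receive narrow-band ultraviolet B (UVB). The members were taken by gene name from a fixed list of 9 genes: the granzymes Gzma, Gzmb and Gzmc, the pore-forming protein Prf1, the granule components Srgn, Nkg7 and Ctsw, and the receptors Klrk1 and Klrd1. All 9 were found among the 55487 genes of the tables, and 8 reached 1 TPM (a transcript level scaled to gene length and to the same total in each library) in at least 2 libraries, the minimum for a test. Klrd1 did not, because it was listed at 0 in every library.

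The 4 libraries were 2 non-UVB and 2 UVB, each group with a number 1 and a number 2, and they are called non-UVB 1, non-UVB 2, UVB 1 and UVB 2 here. The design text describes a psoriasis-like dermatitis on shaved back skin, raised with Aldara cream (60 mg a day, 5% imiquimod), and 3 exposures to UVB in the irradiated animals. It describes the dermatitis once for the mice of the study and does not list the cream by library. Strain, age, sex, UVB dose, cell sorting and any pooling of animals go unstated in the sources used here. Separate animals behind the 2 libraries of a group are not stated either, so p-values here reflect the spread between libraries alone, and that spread may be technical. The bases behind the values came to 3.41 gigabases in non-UVB 1, 2.47 in non-UVB 2, 4.20 in UVB 1 and 2.38 in UVB 2, so both libraries numbered 1 were deeper. Genes at 1 TPM or more numbered 7825 in non-UVB 1, 8033 in non-UVB 2, 10317 in UVB 1 and 10227 in UVB 2. Both UVB libraries thus listed more genes. Foxp3, the transcription factor that defines the labelled cell type, was listed at 0 in non-UVB 1 and stood at 19.4 TPM in non-UVB 2, 3.49 in UVB 1 and 19.3 in UVB 2. Ikzf2, another Treg marker, was at 0.068 TPM in non-UVB 1, 303 in non-UVB 2, 17.6 in UVB 1 and 170 in UVB 2. On Foxp3 and Ikzf2 non-UVB 1 went against its label, though Il2ra and Ctla4, also Treg markers, stood at 248 and 314 TPM there. Gamma-delta T cell markers were high in both libraries numbered 1, at 10486 TPM in non-UVB 1 and 10015 in UVB 1. The doubt about the label thus covers both. Counts without each library are given for the members and for the pathway lists together.

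Cytotoxic granules are secretory lysosomes that killer lymphocytes release onto a target cell. Perforin opens the target's membrane, granzymes are serine proteases that pass through and cleave proteins inside, and the proteoglycan serglycin packs them in the granule until release. Killer lymphocytes choose targets in part through lectin-like receptors such as NKG2D (Klrk1) and the CD94 (Klrd1) heterodimers. Granzyme B is also made by activated regulatory T cells, and epidermal and dermal gamma-delta T cells of mouse skin can carry cytotoxic granules.

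Seen across the libraries, Gzmb and Srgn were abundant in all 4, whereas Gzma, Prf1, Klrk1 and Ctsw followed the replicate number, and none of the tested members separated UVB from non-UVB libraries. The promoters of the 3 granzymes, Prf1 and Klrk1 are shown because these members went different ways across the same libraries. Each is the 250 bases before the gene's start in RefSeq (GRCm38.p6), read in the direction of transcription. Capitals mark matches, on either strand, to a Runx core (TGTGGT), a cyclic AMP response half-site (TGACGT), an AP-1 site (TGANTCA) or a T-box core (TCACAC), letters bound by factors known in killer lymphocytes.
Gzma promoter, chr13:113100982-113101231, minus strand: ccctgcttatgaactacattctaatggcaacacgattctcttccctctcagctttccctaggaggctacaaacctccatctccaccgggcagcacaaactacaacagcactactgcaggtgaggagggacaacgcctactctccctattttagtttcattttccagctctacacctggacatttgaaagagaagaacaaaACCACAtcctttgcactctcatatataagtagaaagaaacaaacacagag
Gzmb promoter, chr14:56262335-56262584, minus strand: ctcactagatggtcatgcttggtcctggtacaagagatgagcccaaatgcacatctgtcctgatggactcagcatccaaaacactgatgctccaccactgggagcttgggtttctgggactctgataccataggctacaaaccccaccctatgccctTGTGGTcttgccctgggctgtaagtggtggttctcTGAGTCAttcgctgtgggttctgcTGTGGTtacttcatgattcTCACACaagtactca
Gzmc promoter, chr14:56234658-56234907, minus strand: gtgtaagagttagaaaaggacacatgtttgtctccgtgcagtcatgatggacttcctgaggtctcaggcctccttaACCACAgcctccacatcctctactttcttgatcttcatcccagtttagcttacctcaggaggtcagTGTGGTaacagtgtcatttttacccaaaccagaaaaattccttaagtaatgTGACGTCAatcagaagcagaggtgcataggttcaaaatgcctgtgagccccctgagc
Prf1 promoter, chr10:61297586-61297835, plus strand: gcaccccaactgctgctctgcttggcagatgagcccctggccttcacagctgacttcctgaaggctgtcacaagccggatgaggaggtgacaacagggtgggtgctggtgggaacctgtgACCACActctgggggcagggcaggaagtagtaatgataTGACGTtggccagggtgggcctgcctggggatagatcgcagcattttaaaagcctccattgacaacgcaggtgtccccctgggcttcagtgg
Klrk1 promoter, chr6:129623865-129624114, minus strand: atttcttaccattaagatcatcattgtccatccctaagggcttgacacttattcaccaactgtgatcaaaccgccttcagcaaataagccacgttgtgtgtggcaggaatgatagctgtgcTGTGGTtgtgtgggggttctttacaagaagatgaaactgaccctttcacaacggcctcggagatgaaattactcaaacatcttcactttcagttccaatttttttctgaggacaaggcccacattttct

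The RefSeq table held promoters for 7 of the 9 members, 8 promoters in all because Srgn has 2 starts. A Runx core was present in 7 of these 8 promoters and was not found in the upstream one of Srgn. The cyclic AMP half-site was found in Gzmc, Prf1 and the downstream promoter of Srgn. The T-box core was found in Gzmb and Nkg7, and the AP-1 site in Gzmb alone. Among all 32851 promoters of this length, 14.0% held that core, 6.47% the cyclic AMP half-site, 6.75% the AP-1 site and 12.3% the T-box core. The Gzmb promoter had Runx matches beginning 93 and 34 bases before the start, an AP-1 match at 58 and a T-box match at 15. In Gzmc the 2 half-site matches overlap and form a full palindrome, beginning 57 and 55 bases before the start. The Gzma and Klrk1 promoters each had only a single Runx match, beginning 50 and 129 bases before the start. Any link between the matches and the levels of these genes was not tested. A match is a description of letters in these windows and does not show that a factor binds there.

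Granzyme B, which cleaves after aspartate and activates caspases in target cells, was the most evenly expressed granzyme. Gzmb (ENSMUSG00000015437, chromosome 14, 56258838 to 56262260, GRCm38) stood at 695 TPM in non-UVB 1, 1516 in non-UVB 2, 735 in UVB 1 and 688 in UVB 2. The library non-UVB 2 was the high library, and the other 3 lay close together. It ranked 178th and 76th among all genes in the non-UVB libraries and 181st and 224th in the UVB libraries.

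Granzyme A is a tryptase that triggers a form of target death without caspase activation. Gzma (ENSMUSG00000023132, chromosome 13, 113093825 to 113100981) was listed at 0 in non-UVB 1 and in UVB 1, and it stood at 107 TPM in non-UVB 2 and at 166 TPM in UVB 2. These levels rested on about 161515 and 238385 aligned bases (deposited coverage times exon length). Both groups thus held a library with the transcript and a library where it was listed at 0.

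Granzyme C lies beside granzyme B in a cluster of serine protease genes and is known from strongly activated killer cells. Gzmc (ENSMUSG00000079186, chromosome 14, 56231441 to 56234656) was listed at 0 in non-UVB 1 and stood at 108 TPM in non-UVB 2, 39.9 in UVB 1 and 8.53 in UVB 2. The highest and the lowest value were therefore both from non-irradiated mice.

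The other granzyme genes of the mouse, Gzmd, Gzme, Gzmf, Gzmg, Gzmk, Gzmm and Gzmn, were listed at 0 in all 4 libraries, 7 of 7. Near-identical copies could have taken each other's reads, so shared sequence was counted. No stretch of 100 bases, the read length, in the transcripts of any of the 9 members recurred in a transcript of another gene. Among the other granzymes the share was at most 6.71%, for Gzmf, whose shared stretches lie in the antisense gene Gm4022.

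Perforin had the lowest mean TPM of the 8 members with a value, though by scaled coverage Klrk1 was lower in 3 of 4 libraries. Prf1 (ENSMUSG00000037202, chromosome 10, 61297833 to 61304680) stood at 25.3 TPM in non-UVB 1, 0.142 in non-UVB 2, 13.4 in UVB 1 and 2.50 in UVB 2. The value of 0.142 TPM rested on 564 aligned bases, so on only a few reads, and that of 25.3 TPM on 141491. Both libraries numbered 1 were above both numbered 2.

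Serglycin, the core protein that binds granzymes and perforin in the granule, was the most abundant member by TPM. Srgn (ENSMUSG00000020077, chromosome 10, 62493833 to 62527451) stood at 2338 TPM in non-UVB 1, 1610.1 in non-UVB 2, 1948 in UVB 1 and 2522 in UVB 2. The highest value was 1.57 times the lowest, the narrowest range among the members with a value in every library. Serglycin is made by most blood cells, myeloid cells included.

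Nkg7, a membrane protein of the granule that aids its release, had an irregular pattern. Nkg7 (ENSMUSG00000004612, chromosome 7, 43437073 to 43438249) stood at 0.144 TPM in non-UVB 1, 266 in non-UVB 2, 123 in UVB 1 and 0 in UVB 2. The 0.144 TPM rested on 288 aligned bases and the 266 TPM on 402204. High and low values occurred in both groups and in both replicate numbers.

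Cathepsin W, a cysteine protease characteristic of natural killer and cytotoxic T cells, followed the replicate number. Ctsw (ENSMUSG00000024910, chromosome 19, 5465043 to 5468507) stood at 181 TPM in non-UVB 1, 0.497 in non-UVB 2, 202 in UVB 1 and 26.1 in UVB 2. Both libraries numbered 1 were again above both numbered 2. The gene overlaps the opposite-strand gene Fibp by 9 bases at its end. Fibp stood at 95.7 TPM in non-UVB 1, 212 in non-UVB 2, 80.1 in UVB 1 and 159 in UVB 2, the reverse of the order for Ctsw.

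NKG2D, an activating receptor for stress-induced ligands, followed the number as well. Klrk1 (ENSMUSG00000030149, chromosome 6, 129610323 to 129623864) stood at 125 TPM in non-UVB 1, 0.278 in non-UVB 2, 54.7 in UVB 1 and 2.16 in UVB 2. It was high in both libraries numbered 1 and low in both numbered 2. Klrd1 (ENSMUSG00000030165, chromosome 6, 129591782 to 129598775) encodes CD94, which pairs with NKG2A or NKG2C, and no aligned base was behind it in any library. Its partner gene Klrc1 (NKG2A), chosen after its values were seen, was listed at 194 TPM in non-UVB 1, 96.0 in non-UVB 2, 106 in UVB 1 and 0.606 in UVB 2. Of the 100-base stretches of Klrc1, 14.6% recur in Klrc2, so the authors' counting could have split these 2 genes.

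**Figure D1:**
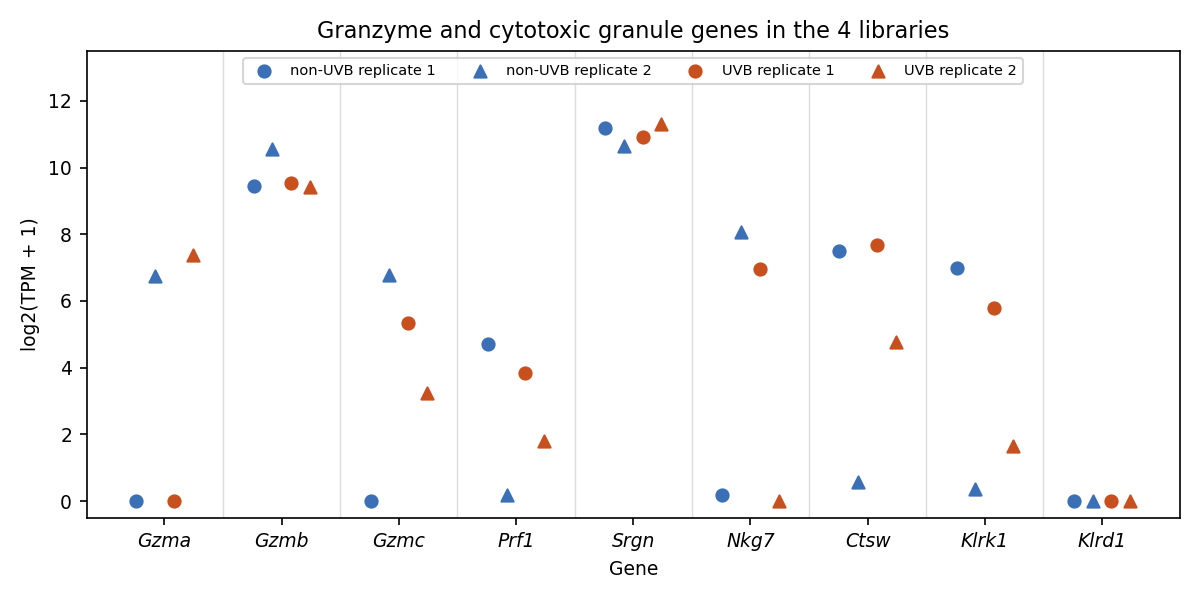
Level of each member as log2(TPM + 1) in the 4 libraries, with colour for group (blue non-UVB, orange UVB) and shape for replicate number (circle 1, triangle 2); each point is 1 library. Gzma is at 0 in both circles, Prf1, Ctsw and Klrk1 have both circles above both triangles, Gzmb and Srgn are high in all 4 libraries, and Klrd1 is at 0 in all 4.

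Several members were high in a library and low or listed at 0 in another. Of 7 members that reached 50 TPM in any library, 5 were under 1 TPM in another one: Gzma, Gzmc, Nkg7, Klrk1 and Ctsw. Among all tested genes that reached 50 TPM, 37.1% were also under 1 TPM in another library, so such jumps were common in these ultra-low-input libraries. A gene listed at 0 is described here only as listed at 0.

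The deposited TPM and the deposited coverage differed most for 2 members, Srgn and Klrk1. Coverage is the mean read depth over all exons of a gene, and it was scaled here to a total of 1000000 per library like TPM. Relative to the ratio of the 2 measures at Gzmb, which has a single annotated transcript, TPM of Srgn was 22.0 times higher in non-UVB 1, 21.1 in non-UVB 2, 21.7 in UVB 1 and 21.6 in UVB 2. By scaled coverage, in the same order of libraries, Srgn had 167, 119, 149 and 183, below Gzmb, which had 1094, 2360.2, 1221 and 1078. The order of these 2 genes thus turned with the measure, in each of the 4 libraries.

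Klrk1, which has 6 annotated transcripts, had a ratio that varied between libraries. Relative to Gzmb it was 5.99 in non-UVB 1, 2.53 in non-UVB 2, 3.68 in UVB 1 and 2.25 in UVB 2. By scaled coverage Klrk1 stood at 32.8 in non-UVB 1 and 24.7 in UVB 1, a smaller gap than the 125 and 54.7 TPM. In non-UVB 2 it stood at 0.171 and in UVB 2 at 1.51, so the contrast between the numbers was present in both measures.

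**Figure D2:**
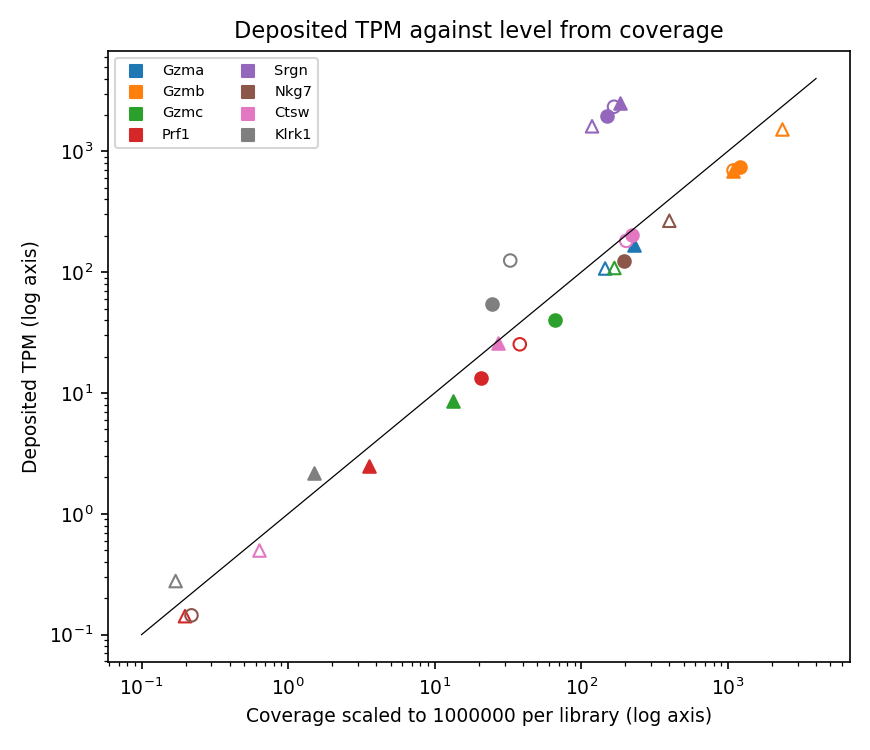
Deposited TPM against coverage scaled to 1000000 per library, both on log axes, for the 8 members with a value; open symbols are non-UVB, filled are UVB, circles are replicate 1, triangles are replicate 2, and the line marks equal values. Values of 0 are not drawn. Srgn lies far above the line at 1610.1 to 2522 TPM against 119 to 183 by coverage, and Klrk1 lies above it. Gzmb, Gzmc, Gzma, Prf1, Nkg7 and Ctsw lie just below it.

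The first comparison asked whether the members differed with UVB. No member passed: with limma on log2(TPM + 1), 0 of the 8 tested members and 0% of the 10286 tested genes had an adjusted p under 0.05 (Benjamini-Hochberg over all tested genes). At an unadjusted p under 0.05 there were 0 members, beside 11.3% of all genes. In 0 of 8 members did the UVB and non-UVB libraries fail to overlap with means at least 1 log2 apart, beside 24.5% of all genes. This count rested on having all 4 libraries. Without non-UVB 1, 6 members separated, beside 51.1% of all genes (Ctsw, Klrk1 and Prf1 higher with UVB, Nkg7, Gzmb and Gzmc lower). There were 3 without non-UVB 2, 2 without UVB 1 and 1 without UVB 2, beside 49.8%, 38.7% and 38.5% of all genes. With a library removed 1 value faces a pair, and separation is easier. The median difference over the tested members was 0.25 log2, and over all tested genes it was 0.26.

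Gzmb had a mean of 1106 ± 581 TPM without UVB and 711 ± 33.2 TPM with UVB (SD, n = 2 libraries per group), a difference of -0.53 ± 0.49 log2 (SE; limma adjusted p = 0.982). This rested on non-UVB 2, since without it the difference was 0.03. Scaling the libraries to equal medians separated the groups at Gzmb alone among the members, beside 27.3% of all genes. Gzmb was then lower with UVB at -1.17 log2, and the median of all genes moved from 0.26 to -0.27. Srgn differed by 0.19 ± 0.34 log2 (limma adjusted p = 0.9998) and turned to -0.45 under that scaling.

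For the members that varied more, the SE exceeded the difference in each case. Gzma differed by 0.31 ± 3.73 log2, Gzmc by 0.92 ± 2.72 and Nkg7 by -0.65 ± 3.89. Prf1 differed by 0.38 ± 2.04, Klrk1 by 0.07 ± 2.97 and Ctsw by 2.17 ± 2.78. Each had a limma adjusted p of 0.9998, and over 14 alternatives the lowest adjusted p of any member was 0.369, for Ctsw.

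Within the replicate numbers the differences with UVB pointed different ways. Of 8 tested members, 6 had opposite signs in number 1 and number 2, and 1 had the same sign. Gzma had no sign in number 1, where both libraries were listed at 0. The share over all tested genes was not counted, so these counts are a description only. Gzmc was 5.35 log2 higher with UVB in number 1 and -3.52 in number 2, and Nkg7 was 6.76 higher in number 1 and -8.06 in number 2. Klrk1 stood at -1.18 and 1.31 and Prf1 at -0.86 and 1.62, while Ctsw was at 0.15 and 4.18. Each value compares 1 library with 1 library and has no replicate check.

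The second comparison set the libraries numbered 2 against those numbered 1, each pair holding a non-UVB and a UVB library. The labels do not say what a number stands for. Of the 8 tested members, 4 did not overlap between the numbers with means at least 1 log2 apart, beside 30% of all tested genes. Gzma was higher in number 2 (1 of 8, beside 14.9% of genes), and Prf1, Klrk1 and Ctsw were lower (3 of 8, beside 15.1% of genes). The same 4 genes were separated under every alternative that changed the values. They stayed separated with a library left out, which is no check, since removing a library cannot make separate groups overlap. Without UVB 2 there were 7 members separated, beside 49.6% of all genes: Nkg7, Gzmb and Gzmc joined, all higher in number 2. Nkg7 joined without non-UVB 2, there lower in number 2 (5 of 8, beside 42.4%). Gzmc joined without UVB 1, higher in number 2 (5 of 8, beside 55.2%). Without non-UVB 1 there were 4, beside 44%. With limma 0 members passed, beside 0% of all genes, and 3 members had an unadjusted p under 0.05, beside 12.5% of all genes.

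Klrk1 had a mean of 89.7 TPM in number 1 and 1.22 TPM in number 2, a difference of -5.38 ± 1.17 log2 (SE, n = 2 per number; limma adjusted p = 0.239). Ctsw, at means of 192 and 13.3 TPM, differed by -4.92 ± 1.64 (limma adjusted p = 0.366). Prf1, at 19.3 and 1.32 TPM, differed by -3.28 ± 1.20 (limma adjusted p = 0.411). Gzma, at 0 and 137 TPM, differed by 7.07 ± 1.04 (limma adjusted p = 0.239), a value that depends on the added 1 TPM because number 1 was listed at 0. Ranges of the adjusted p over the alternatives were 0.154 to 0.651 for Klrk1, 0.314 to 0.810 for Ctsw, 0.325 to 0.738 for Prf1 and 0.135 to 0.454 for Gzma. With each library left out in turn, Klrk1 ranged from -6.03 to -4.72 and Gzma from 6.76 to 7.39. Ctsw and Prf1 moved more: Ctsw reached -7.01 without UVB 2 and -2.83 without non-UVB 2, and Prf1 ranged from -4.09 to -2.47.

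The other 4 tested members overlapped between the numbers. Gzmb differed by 0.51 ± 0.46 log2, Gzmc by 2.34 ± 2.50, Nkg7 by 0.45 ± 3.92 and Srgn by -0.08 ± 0.30. Over the 8 tested members the median was 0.19, beside 0.10 for all tested genes.

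**Figure D3:**
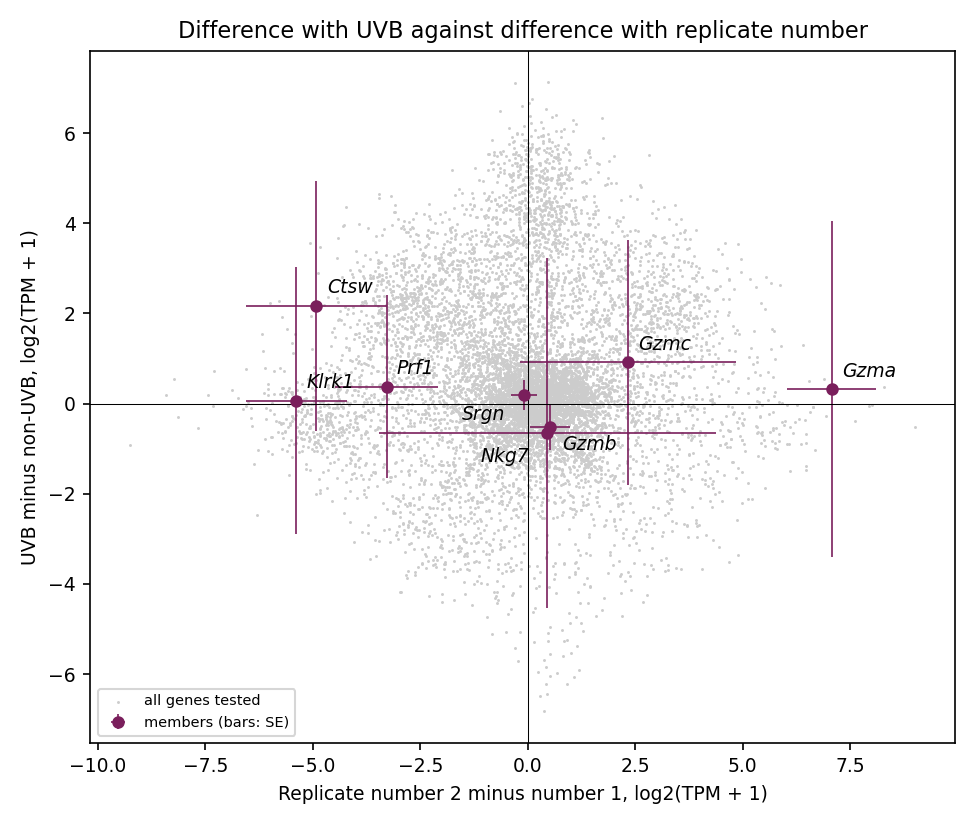
Difference of UVB minus non-UVB against difference of replicate number 2 minus number 1, both on the log2(TPM + 1) scale, for all 10286 tested genes (grey) and the 8 tested members (purple, bars are SE from limma). Gzma lies at 7.07 and Klrk1, Ctsw and Prf1 at -5.38, -4.92 and -3.28 along the number axis, while no member lies farther than 2.17 from 0 along the UVB axis.

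Markers of cell types moved along the same axis, and fewer cells of a type cannot be told apart here from less RNA per cell. The 9 gamma-delta T cell markers summed to 10486 TPM in non-UVB 1, 179 in non-UVB 2, 10015 in UVB 1 and 309 in UVB 2. All of them, 9 of 9, were lower in number 2 without overlap, beside 15.1% of all tested genes. Trdv4 and Trgc1 were the most abundant. This is the direction of Klrk1, Ctsw and Prf1. Of the 5 tested macrophage and dendritic cell markers, 5 also had lower means in number 2, and 3 of them, Lyz2, Csf1r and Cd68, did so without overlap (list median -1.40 log2). The part of either cell type in those differences was not tested. In the direction of Gzma, keratinocyte markers summed to 144 TPM in non-UVB 1, 1911 in non-UVB 2, 282 in UVB 1 and 1596 in UVB 2, led by Krt14 and Krt5, and 3 of 4 were higher in number 2 without overlap, Krt10 being the exception. The 4 Treg markers, led by Ctla4 and Il2ra, summed to 563 TPM in non-UVB 1, 2070.03 in non-UVB 2, 703 in UVB 1 and 1837 in UVB 2. Of these, 3 of 4 were higher in number 2 without overlap, beside 14.9% of all tested genes, and Il2ra was not. The part of these cells in the Gzma difference was not tested, nor was that of the deeper reading of the libraries numbered 1.

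Markers of the cell types best known for these granules were mostly listed at 0, which in these files does not show that the cells were absent. All 5 natural killer cell markers, Ncr1, Klrb1c, Eomes, Klra4 and Klra8, were listed at 0 in all 4 libraries. Of the CD8 T cell markers, Cd8a was at 0 throughout and Cd8b1 reached 0.211 TPM in 1 library, non-UVB 2. Of 8 mast cell and basophil markers, 6 were at 0 throughout, Cpa3 did not exceed 0.0330 TPM, and Kit reached 34.4 TPM in UVB 2. Neutrophil markers summed to 427 TPM in non-UVB 1, 3255 in non-UVB 2, 363 in UVB 1 and 2203 in UVB 2. That sum was led by S100a8 and S100a9, which keratinocytes of inflamed skin also express. Csf3r was listed at 0 in non-UVB 1 and stood at 21.5 TPM in non-UVB 2, 19.2 in UVB 1 and 11.5 in UVB 2. Ly6g and Retnlg were listed at 0 in all 4 libraries.

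Macrophage and dendritic cell markers, led by Cd74 and Lyz2, summed to 6185 TPM in non-UVB 1, 2523 in non-UVB 2, 10505 in UVB 1 and 6732 in UVB 2. Alpha-beta T cell markers, led by Trbc2 and Trac, summed to 3819 TPM in non-UVB 1, 4978 in non-UVB 2, 2816 in UVB 1 and 2626 in UVB 2. That sum hides opposite directions: without overlap, Trac and Cd4 were higher and Cd3e was lower in number 2, while Trbc1 and Trbc2 overlapped. Haemoglobin took 11.7% of TPM in non-UVB 1 and 0.153% to 0.441% in the other 3 libraries, and rescaling without it left the same 4 members separated.

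**Figure D4:**
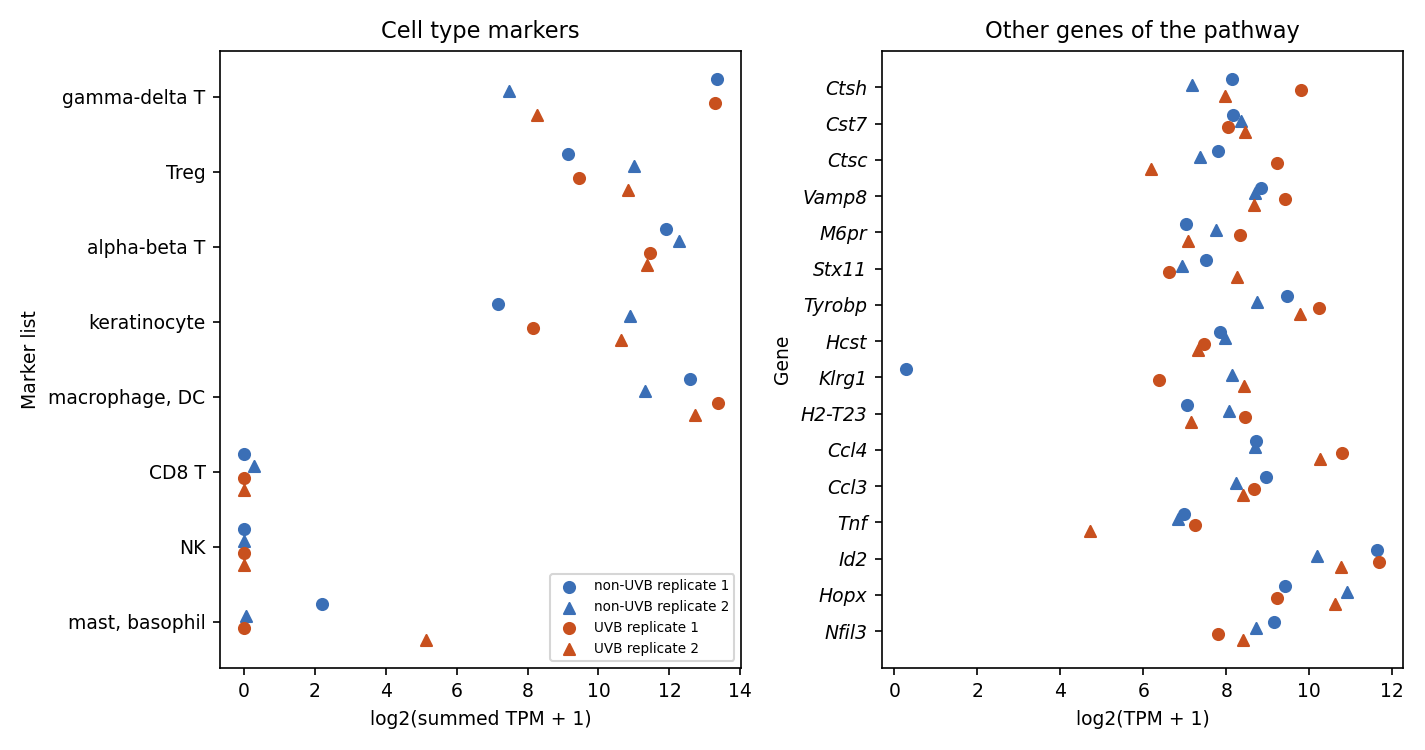
Left, summed TPM of 8 cell type marker lists as log2(sum + 1); right, log2(TPM + 1) of the most abundant tested genes of the pathway lists; colours and shapes mark group (blue non-UVB, orange UVB) and number (circle 1, triangle 2). Gamma-delta T markers sum to 10486 and 10015 TPM in number 1 and to 179 and 309 TPM in number 2, and natural killer markers are at 0.

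Beyond the members, 69 genes in 7 lists of the cytotoxic pathway were followed, of which 42 were tested and 18 were listed at 0 throughout. Of each list the 3 most abundant tested genes are given in full, and others named there were picked after their values were seen. With limma 0 passed in either comparison. By UVB 8 of 42 were separated with means at least 1 log2 apart, 6 higher and 2 lower (19.0%, beside 24.5% of all genes). At an unadjusted limma p under 0.05 there were 7 by UVB, beside 11.3% of all genes. By number 15 of 42 were separated, 5 higher and 10 lower in number 2 (35.7%, beside 30%). There, 6 had an unadjusted limma p under 0.05, beside 12.5% of all genes. Without non-UVB 1, non-UVB 2, UVB 1 or UVB 2 the count by UVB was 17, 20, 19 or 15, and by number 21, 19, 23 or 18, beside 38.5% to 51.1% and 42.4% to 55.2% of all genes. Median scaling gave 15 by UVB, 6 higher and 9 lower, and 10 by number (35.7% and 23.8%, beside 27.3% and 31.8% of all genes). The medians were 0.23 log2 for UVB and -0.16 for the number, beside 0.26 and 0.10 over all genes.

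Proteins that activate or restrain granzymes were mostly present. Ctsc, whose product cathepsin C trims granzyme precursors, stood at 221 TPM in non-UVB 1, 163 in non-UVB 2, 592 in UVB 1 and 71.2 in UVB 2. Cst7, which encodes cystatin F, an inhibitor of that protease, was even across libraries at 283 TPM in non-UVB 1, 328 in non-UVB 2, 263 in UVB 1 and 351 in UVB 2. Ctsh, which can also process granzyme B, stood at 282 TPM in non-UVB 1, 143 in non-UVB 2, 886 in UVB 1 and 251 in UVB 2. Of the 5 tested members of this list 0 separated the UVB groups, beside 24.5% of all genes, and 3 separated the numbers, beside 30%. These were Ctsc and Ctsh, lower in number 2, and Serpinb9, an inhibitor of granzyme B, which was chosen after its values were seen. Serpinb9 was listed at 0 in both libraries numbered 1, like Gzma, and stood at 7.04 TPM in non-UVB 2 and 33.3 in UVB 2. The list's medians were 0.12 for UVB and -0.16 for the number.

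Genes of granule transport and exocytosis had 16 of 18 members tested, with 13 higher means with UVB (81.2%, beside 61% of all tested genes) and a median of 0.98 log2, beside 0.26. After median scaling 8 of 16 had higher means, beside 40.6% of all genes, and after quantile normalization 13 of 16, beside 44.9%. With a library left out 10 or 11 of 16 had higher means (62.5% to 68.8%, beside 54.7% to 62.6% of all genes). Vamp8, a fusion protein of the granule membrane, stood at 454 TPM in non-UVB 1, 409 in non-UVB 2, 677 in UVB 1 and 405 in UVB 2. M6pr, a sorting receptor for lysosomal enzymes, was at 130.4 TPM in non-UVB 1, 214 in non-UVB 2, 322 in UVB 1 and 135 in UVB 2. Stx11, a syntaxin needed for granule fusion, was at 182 TPM in non-UVB 1, 120.1 in non-UVB 2, 97.4 in UVB 1 and 306 in UVB 2. These most abundant members overlapped between the groups. The 4 of 16 that separated with UVB (25%, beside 24.5% of all genes) were chosen after their values were seen. They were Rab27a, Ap3b1 and Ap3d1 on the higher side and Sytl2 on the lower. In non-UVB 1 and non-UVB 2, Ap3b1 was at 0.050 and 0.328 TPM and Ap3d1 at 0.525 and 0.137. Sytl2 was listed at 0 in UVB 1 and stood at 2.09 TPM in UVB 2. The part of the larger number of genes in the UVB libraries was not tested. Rab27a, the small GTPase that docks granules, was listed at 0 in non-UVB 1 and stood at 0.144 TPM in non-UVB 2, 10.8 in UVB 1 and 25.2 in UVB 2 (limma adjusted p = 0.223). By number 3 separated (18.8%, beside 30% of all genes), Stxbp2 higher and Lamp1 and Snap23 lower in number 2, with a list median of 0.48.

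Receptors and adaptors of natural killer cells had 8 of 13 members tested. Tyrobp, an adaptor shared with myeloid cells, stood at 700.3 TPM in non-UVB 1, 428 in non-UVB 2, 1197 in UVB 1 and 872 in UVB 2. Hcst, the DAP10 adaptor of NKG2D, stood at 229 TPM in non-UVB 1, 248 in non-UVB 2, 175 in UVB 1 and 158 in UVB 2. With UVB Tyrobp differed by 0.90 ± 0.42 log2 and Hcst by -0.52 ± 0.40 (SE), so neither had means 1 log2 apart. Klrg1, an inhibitory receptor for cadherins, stood at 0.206 TPM in non-UVB 1, 279 in non-UVB 2, 81.9 in UVB 1 and 341 in UVB 2. In this list Cd244a alone separated the UVB groups, higher with UVB (12.5%, beside 24.5% of all genes). Klrg1 was higher and Klrc1, Klrc2 and Cd226 were lower in number 2 (50%, beside 30% of all genes). List medians were -0.64 for UVB and -0.81 for the number.

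Of 6 genes for ligands of these receptors, 1 was tested: H2-T23, which encodes the nonclassical class I molecule bound by CD94 with NKG2A, at 133 TPM in non-UVB 1, 265 in non-UVB 2, 351 in UVB 1 and 141 in UVB 2. The NKG2D ligands Raet1e, H60b and H60c were listed at 0 throughout, Raet1d did not exceed 0.0378 TPM, and Ulbp1 reached 4.16 TPM in UVB 2 alone.

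Secreted effectors had 5 of 9 members tested. The chemokine Ccl4 stood at 417 TPM in non-UVB 1, 415 in non-UVB 2, 1779.5 in UVB 1 and 1219 in UVB 2. The difference was 1.82 ± 0.35 log2 (SE; limma adjusted p = 0.223). Of this list Ccl4 was the only gene to separate the UVB groups (20%, beside 24.5% of all genes). Its relative Ccl3 stood at 498 TPM in non-UVB 1, 297 in non-UVB 2, 404 in UVB 1 and 336 in UVB 2 and overlapped. Tnf was at 124 TPM in non-UVB 1, 112 in non-UVB 2, 150.04 in UVB 1 and 25.3 in UVB 2. The macrophage and dendritic cell sums given above were also higher with UVB within each number, and their part in the Ccl4 difference was not tested. By number Ccl5 was higher and Tnf and Lta were lower in number 2 (60%, beside 30% of all genes). Ifng, Fasl, Tnfsf10 and Xcl1 did not reach 1 TPM in 2 libraries. Ifng stood at 10.8 TPM and Tnfsf10 at 7.76 TPM in UVB 1 alone. Fasl and Xcl1 did not exceed 0.0901 and 0.111 TPM. The list medians were -0.06 and -0.50.

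Transcription factors of cytotoxic cells had 7 of 10 members tested. Tbx21, Eomes and Zfp683, which direct the killer programme in CD8 T and natural killer cells, were listed at 0 in every library. Id2, an inhibitor of E proteins in innate-like lymphocytes, stood at 3145 TPM in non-UVB 1, 1169.7 in non-UVB 2, 3294 in UVB 1 and 1728 in UVB 2. Hopx, a small homeodomain protein, went the other way along the number, at 679.9 TPM in non-UVB 1, 1906 in non-UVB 2, 598 in UVB 1 and 1575 in UVB 2. The differences by number were -1.18 ± 0.26 log2 for Id2 and 1.44 ± 0.23 for Hopx, each with a limma adjusted p of 0.239. Nfil3 stood at 569 TPM in non-UVB 1, 420.4 in non-UVB 2, 222 in UVB 1 and 335 in UVB 2. Prdm1 was higher and Stat4 lower with UVB without overlap (28.6%, beside 24.5% of all genes), and the list medians were -0.44 and 0.08.

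Genes with the profile nearest to each granzyme were found by Euclidean distance between centred log2(TPM + 1) values over the 4 libraries, as a description. Nearest to Gzmb were Mrpl2, Ube2s and Arl6ip5, at distances of 0.14, 0.14 and 0.15. Nearest to Gzma were Luc7l3 at 0.37, Lce3e at 0.60 and Krtcap3 at 0.69, each listed at 0 in both libraries numbered 1. Nearest to Gzmc were Vrk2 at 0.39, Ppox at 0.58 and Rrp8 at 0.67. These distances rest on 4 libraries and share their depth and cell makeup.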

How the data were processed

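RNA was measured in 4 libraries prepared, per the labels' protocols, by an ultra-low-input SMARTer kit and read single-end at 100 bp. Strandedness and annotation go unstated in the sources used here. The submitters' processing notes name GRCm38 and the tools HISAT2, StringTie and DESeq2, without roles or versions. The authors deposited, per the file headers, coverage, FPKM and TPM for each gene of each library. Deposited coverage is read depth per base, deposited FPKM adjusts for length and depth, and deposited TPM sums to 1000000. From the ratio of coverage to FPKM, about 3.41, 2.47, 4.20 and 2.38 gigabases lay behind non-UVB 1, non-UVB 2, UVB 1 and UVB 2. The design allowed for read counts, but the deposited tables hold TPM, and whole reads were not recovered.

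Rows of a gene ID were summed. Genes at 1 TPM or more in at least 2 libraries were tested, 10286 in all, as log2(TPM + 1) with limma 3.58.1 in R 4.3.3, with an intensity trend and either UVB or the replicate number as the only term. The fit was tested on simulated data. GENCODE M21, whose coordinates matched for all 9 members, gave exons and transcripts. Promoters came from RefSeq.

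The members and lists were chosen with earlier results of these data known. Named were all members, the 3 most abundant tested genes of each pathway list, the 2 most abundant markers of each cell type and the 3 nearest profiles per granzyme. Predicted, Rik, mitochondrial, ribosomal protein and receptor segment genes were left out of the profiles. Alternatives changed the pseudocount, filter, unit, scaling and spread model, with a block for replicate number and each library removed in turn as further ones.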

Additional observations from a re-analysis of the deposited data

How the results depend on the processing

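With limma 0 genes passed under every alternative in either comparison, except 13 by replicate number after quantile normalization, none of them a member. At an unadjusted p under 0.05 there were 1167 genes by UVB and 1290 by number. The labels do not say that a number pairs libraries, and deviations of same-numbered libraries correlated at 0.17. With the replicate number as a block, 0 genes passed by UVB and 1110 had an unadjusted p under 0.05, and no call on a member changed. Genes separated by at least 1 log2 numbered 2524 by UVB and 3090 by number, and 3959 to 5253 and 4363 to 5681 with 1 library left out, where a lone library faces 2 and overlap is less likely. Of the genes separated by UVB 73.7% were higher with UVB, against 45% after quantile normalization and 52.1% after median scaling, which moved the median of all genes to -0.19 and -0.27.

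Directions with UVB were unstable. Klrk1 turned to -0.074 with FPKM, -0.60 after quantile normalization, -0.30 after median scaling and -0.021 without haemoglobin. Prf1 turned to -0.57 after quantile normalization, and Gzma to -0.11 and Srgn to -0.45 after median scaling. Leaving out 1 library gave ranges of -3.38 to 4.01 for Gzma, -1.09 to 0.032 for Gzmb, -2.47 to 4.30 for Gzmc, -1.89 to 2.64 for Prf1, -4.58 to 3.28 for Nkg7, -0.077 to 0.46 for Srgn, -3.24 to 3.38 for Klrk1 and -1.30 to 5.63 for Ctsw. By number, Nkg7 turned to -0.090 with a pseudocount of 0.1 and -0.15 after quantile normalization, and Srgn to 0.18 after median scaling. Ranges there were -0.056 to 1.08 for Gzmb, -0.34 to 5.01 for Gzmc, -3.58 to 4.49 for Nkg7 and -0.41 to 0.24 for Srgn. Gzma, Prf1, Klrk1 and Ctsw turned under no alternative, but leaving out a library could not turn them, because their values did not overlap between the numbers. The cause of these turns was not tested. Use of coverage in place of TPM was chosen after seeing the data and reversed no member. With 2 libraries per group, the SE of a log2 difference had a median of 1.12, which limits what could be detected.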
